A study of Mus musculus with 24 samples.

Results

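A consensus list of H3K4me3 peaks in C127 cells was searched for peaks that lay away from known start sites and outside genes. Of 13447 peaks on 20 chromosomes, 1321 (9.82%) lay over 1000 bp from every transcription start site (TSS) of GENCODE vM21, counting all gene types, and had a midpoint in no annotated gene body. These are called intergenic peaks here. Another 1328 peaks (9.88%) met the same distance limit but had their midpoint in an intron, 135 had it in an exon, and 10663 lay within 1000 bp of a TSS. The intergenic peaks covered 1.69 Mb of the 38.5 Mb in the list, and 0.129% of the 1309191431 bases of the reference that met the same rule. Those bases are called eligible intergenic bases below.

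C127 cells are a line of mouse mammary epithelium. Of the 24 samples and 12 groups of the series, the list was made by the authors from 3 H3K4me3 ChIP replicates of C127 cells crosslinked with formaldehyde. An in-house antibody was used for them, and a separate input with 1 sample accompanied them. The 21 samples other than the H3K4me3 replicates (ChIP of CFP1, KDM2B, RNA PolII and GFP-tagged forms of CFP1, a GFP control and inputs) were not analysed here. Since the list gave 1 start and 1 end for each peak present in every replicate, no value below has a spread between replicates, the read depth behind a peak is unknown, and each p-value measures the spread between chromosomes. As a check of the labelled cell type, Epcam, Cdh1, Krt8, Krt18, Krt5 and Cldn4, which mark epithelial cells, had no peak within 250 bp of a GENCODE vM21 TSS (called a start peak below), whereas Krt14 had one of 1677 bp. Vim, a mesenchymal marker, had one of 7153 bp, and Gata3 and Trps1, transcription factor genes of mammary epithelium, had start peaks of 15554 and 14787 bp.

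H3K4me3 is deposited by the SET1 and MLL families of methyltransferase complexes and is best known from the start sites of active genes. In mammals most such starts lie in CpG islands, stretches rich in non-methylated CpG that proteins with a CXXC domain, such as the SET1 complex subunit CFP1, can recognise. Away from annotated promoters the mark is found at starts of unannotated transcripts, at genes of RNA polymerase III such as tRNA genes, and more weakly at some enhancers, which are more often marked by H3K4me1.

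Sequences of 3 kinds, which can overlap, recurred among the intergenic peaks. Examples of each are shown from the GRCm38 reference (mm10), always 5′ to 3′ on the strand named. The first 3 are the most CpG-dense 200-bp stretches of the 3 peaks with the most CpGs, with every CpG in capitals. They lay at chr13:21169924-21170123 (17 CpGs, GC content 59.5%), chr4:133813410-133813609 (37 CpGs, 81% GC) and chr11:69040113-69040312 (21 CpGs, 64% GC), all on the plus strand, and are named by the nearest coding gene.
Trim27: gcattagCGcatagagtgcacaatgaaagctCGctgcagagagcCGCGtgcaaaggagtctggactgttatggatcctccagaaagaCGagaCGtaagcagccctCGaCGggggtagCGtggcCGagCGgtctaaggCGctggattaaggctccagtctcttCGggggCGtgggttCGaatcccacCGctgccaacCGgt
Rps6ka1: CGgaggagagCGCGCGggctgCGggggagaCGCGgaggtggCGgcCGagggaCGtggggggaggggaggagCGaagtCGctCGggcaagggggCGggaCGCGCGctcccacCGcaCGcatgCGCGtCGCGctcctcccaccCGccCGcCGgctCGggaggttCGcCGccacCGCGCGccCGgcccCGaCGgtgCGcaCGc
Ctc1: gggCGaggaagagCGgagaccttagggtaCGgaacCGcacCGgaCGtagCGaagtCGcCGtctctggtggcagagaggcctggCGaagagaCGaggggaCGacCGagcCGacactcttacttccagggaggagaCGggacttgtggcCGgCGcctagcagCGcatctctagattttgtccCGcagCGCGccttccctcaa

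The next 2 are the 200-bp stretches with the most AP-1 letters in the 2 peaks that held the most of them, with the letters in capitals. AP-1 is the dimer of FOS and JUN proteins, and TGANTCA was searched as its motif. The stretch near Cd9 lay at chr6:125425517-125425716 and that near Nanos3 at chr8:84192013-84192212, on the plus strand, and each held 2 copies.
Cd9: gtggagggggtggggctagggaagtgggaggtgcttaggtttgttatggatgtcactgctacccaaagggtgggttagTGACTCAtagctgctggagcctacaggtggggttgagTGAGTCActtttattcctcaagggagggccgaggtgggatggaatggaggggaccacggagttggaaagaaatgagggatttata
Nanos3: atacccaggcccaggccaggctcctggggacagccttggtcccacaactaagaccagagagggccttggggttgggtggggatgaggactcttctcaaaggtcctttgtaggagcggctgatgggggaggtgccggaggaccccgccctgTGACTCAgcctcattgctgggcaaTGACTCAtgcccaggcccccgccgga

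The last 2 show the internal promoter of RNA polymerase III, with the A box (TGGNNNAGT) and the B box (GTTCGANNC) in capitals. They come from 2 of the peaks with the most such pairs, and RefSeq annotates each as a tRNA gene. The CpG-dense stretch near Trim27 above also holds B box letters (gttCGaatc), left unmarked there, and its peak held 7 tRNA genes. The windows cover a tRNA-Ser gene at chr11:69037472-69037558 (plus strand, 87 bp shown) and a tRNA-Gly gene at chr3:96501009-96501085 (minus strand, 77 bp).
Ctc1: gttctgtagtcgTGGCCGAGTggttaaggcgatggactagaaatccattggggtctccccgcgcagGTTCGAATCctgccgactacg
Hfe2: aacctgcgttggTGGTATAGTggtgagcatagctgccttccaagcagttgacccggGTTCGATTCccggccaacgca

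Intergenic peaks were narrow and differed in CpG content over a wide range. Their median width was 1068 bp (quartiles 719 and 1587 bp, range 287 to 8868 bp), and 52 of them (3.94%) were wider than 3000 bp, whereas peaks within 1000 bp of a TSS had a median of 3023 bp. The median CpG density was 1.86 per 100 bp (quartiles 1.30 and 2.73), which lay between that of intronic peaks (1.46) and of peaks near a TSS (3.36). Eligible intergenic bases as a whole held 0.698 CpGs per 100 bases. Every intergenic peak held at least 2 CpGs, 185 had fewer than 1 per 100 bp, and 268 (20.3%) had 3 or more. The GC content had a median of 50.5% against 40.7% of the eligible bases, and 11.7% of the median peak was repeat-masked against 40.2% of those bases.

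CpG islands were defined from sequence by a minimum length of 200 bp, a minimum GC fraction of 0.5 and a minimum CpG observed over expected value of 0.6. Windows of 200 bp that met the limits were merged when they overlapped or adjoined, and the merged stretch had to meet the limits as a whole. An island by this rule overlapped 363 of the 1321 intergenic peaks (27.5%, 95% Wilson interval 25.1 to 29.9%). Of the intronic peaks 11% (146 of 1328) overlapped one, and of the peaks near a TSS 89.0% did. Without the condition on the merged stretch, an alternative chosen after seeing the data, 609 intergenic peaks (46.1%) and 368 intronic peaks (27.7%) had at least 1 window that met the limits. Under stricter limits (500 bp, 0.55 and 0.65) 92 intergenic peaks (6.96%) and 1.73% of the intronic peaks held an island. Most islands between genes had no peak. Of 26493 islands in eligible intergenic sequence 531 (2.00%) were overlapped by one, and of 1275 stricter islands 105 (8.24%) were. The intergenic peaks with an island had a median width of 1357 bp against 984 bp for those without, and a median CpG density of 3.25 against 1.53 per 100 bp.

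The island share and CpG density of intergenic peaks exceeded those of intronic peaks on nearly every chromosome. Averaged over 20 chromosomes the island share was 17.6 ± 7.40 percentage points higher (SD, n = 20 chromosomes), with the intergenic peaks higher on 20 of 20 (exact sign-flip permutation test, two-sided, adjusted p = 3.81e-06 over 8 tests). This is the adjusted value of the smallest p that 20 chromosomes allow (1.91e-06, exact). The CpG density was 0.453 ± 0.386 per 100 bp higher and was higher on 19 of 20 chromosomes (same exact test, adjusted p = 6.10e-06). Chromosome X had the highest island share, with 8 of its 14 intergenic peaks (57.1%). The median width, in contrast, was 56.1 bp lower on average with an SD of 189 bp, and was lower on 11 chromosomes and higher on 9 (exact test, adjusted p = 0.236), so a difference in width from the intronic peaks was not detected.

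**Figure D1:**
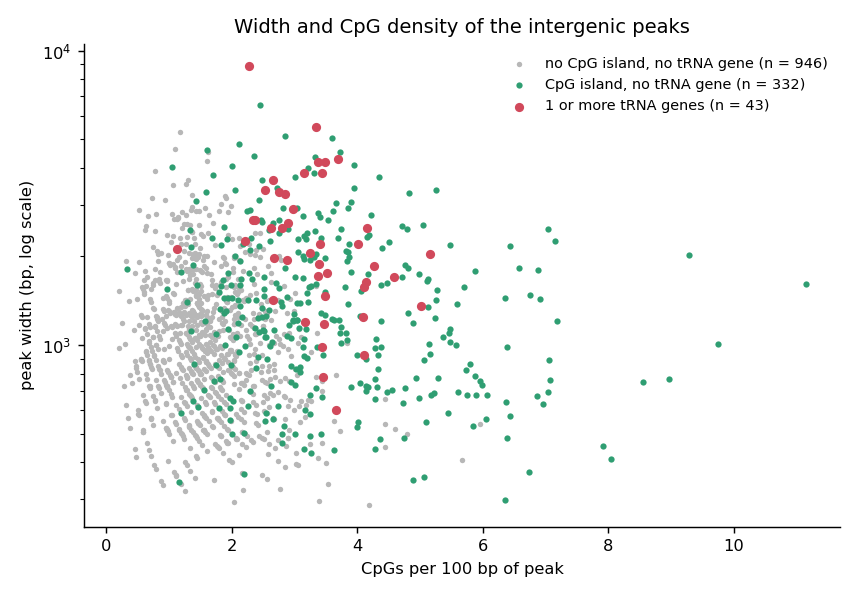
Each point is 1 of the 1321 intergenic peaks, placed by its CpGs per 100 bp (horizontal axis) and its width in bp (vertical axis, log scale). Red points mark the 43 peaks with a tRNA gene, green points the other 332 with a CpG island, and grey points the remaining 946. The grey points crowd below 3 CpGs per 100 bp, and the red points have a median of 3.37 per 100 bp and a median width of 2118 bp.

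The peaks with the most CpGs fell into different surroundings. The largest number was 202, in the 8868-bp peak that lay 4192 bp on the 5′ side of Trim27, an E3 ligase gene, at chr13:21166386-21175253. Windows of 200 bp in it met the limits, including the one shown above, but the merged stretches did not, so the peak was counted as without an island. Its density was 2.28 CpGs per 100 bp. The peak with 188 CpGs, at chr4:133812817-133814842, held 9.28 per 100 bp over 2026 bp, 32448 bp beyond the 3′ end of Rps6ka1, which encodes the ribosomal S6 kinase RSK1. The densest of this group held 180 CpGs in 1614 bp (11.2 per 100 bp) and lay 82668 bp on the 5′ side of Arhgap32, a gene without a start peak by GENCODE vM21, although RefSeq placed a start of Arhgap32 itself within 1000 bp of this peak. Peaks with 160 to 180 CpGs also had as nearest gene Bmi1 (174) and Bcor (162), which encode subunits of Polycomb complexes, the chromatin remodeller gene Chd2 (162) and the talin gene Tln2 (176, at a RefSeq start of Tln2). The peak near Bmi1 lay 2110 bp beyond the gene and that near Bcor 29029 bp beyond it, whereas those near Chd2 and Tln2 lay over 70 kb from it on the 5′ side (74150 and 72048 bp). RefSeq also placed starts of Gm32298, Gm34296 and Gm46725 within 1000 bp of the peaks near Trim27, Rps6ka1 and Bmi1, in that order. The peaks near Bcor and Chd2 given here had no RefSeq start that close.

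tRNA genes of the RefSeq annotation, which played no part in the choice of the peaks, lay in 3 of the 15 widest. RefSeq placed 403 tRNA genes on the 20 chromosomes, of which 172 (42.7%) overlapped a peak of any kind. Of these, 85 overlapped an intergenic peak and 80 a peak within 1000 bp of a TSS. Wholly inside the intergenic peaks lay 81 tRNA genes in 43 peaks (3.26%). Among intronic peaks 5 (0.377%) held one, and among peaks near a TSS 49 (0.460%). How many of all tRNA genes lie in intergenic or intronic sequence was not counted. A single tRNA gene was found in 24 of the 43 and more than one in 19. They served 18 kinds of tRNA by the RefSeq names, led by tRNA-Leu (12), tRNA-Pro (8) and tRNA-Lys (7).

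The tRNA peaks had a median width of 2118 bp and lay on 14 of the 20 chromosomes. The peak near Trim27 and that near Ctc1, a subunit gene of the telomere CST complex, held 7 tRNA genes each, the most of any. The latter spanned 5482 bp (chr11:69036435-69041916), overlapped Ctc1 from its 3′ side, and held 183 CpGs. Peaks with 4 tRNA genes lay 21509 bp on the 5′ side of Hfe2, the hemojuvelin gene of iron control (4179 bp wide), and 10120 bp on the 5′ side of Cfap126 (2198 bp wide). Chromosome 13 carried 13 of the 43 peaks with 24 tRNA genes, all between positions 21158631 and 23526949, a span of 2.37 Mb. Of the 43, 31 (72.1%) overlapped a CpG island, and all 43 had at least 1 window that met the limits. The B box letters, part of the tRNA genes by which these peaks were picked, were in 36 of them. AP-1 letters were in 15 of the 43, against 602 of all 1321 intergenic peaks (45.6%). Both motifs were counted here over the whole peak. The nearest coding gene had a peak for 27 of the 43 (62.8%, interval 47.9 to 75.6%). An A box followed by a B box at the spacing of a tRNA gene (25 to 90 bp between their starts) was found in 17 intergenic peaks, 14 of which held an annotated tRNA gene. Trim56 was nearest to one of the others, a peak of 2978 bp.

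RefSeq, an annotation not used for the choice, had the start of a transcript within 1000 bp of 161 intergenic peaks (12.2%, interval 10.5 to 14.1%), so these are far from starts only by GENCODE vM21. The same held for 88 of 1328 intronic peaks (6.63%), 13 of 135 exonic ones (9.63%) and 96.3% of peaks near a TSS. For 132 of the 161 intergenic peaks the RefSeq starts belonged only to genes named Gm, LOC or Rik, names given provisionally to loci of mostly uncharacterised function. Among the wide ones, the start near the Tex44 peak was of Gm32700 and that near the Azin1 peak of Gm41308. The start at the Stac3 peak, 4358 bp wide, was of Ndufa4l2, and that at the Pax2 peak was of Pax2 itself. In all, 19 of the 161 had a RefSeq start of their own nearest coding gene, and for 11 of these the gene had no start peak by GENCODE vM21. These 161 peaks had a median width of 1321 bp and 2.51 CpGs per 100 bp, and 74 (46.0%) held an island. After removal of the peaks with an island, a tRNA gene or a RefSeq start, 861 (65.2%) remained, with a median width of 968 bp, 1.50 CpGs per 100 bp and a median gap of 15274 bp to the nearest coding gene.

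Intergenic peaks lay close to coding genes compared with the space available. The median gap from peak edge to gene body was 13654 bp (quartiles 5169 and 37880 bp), and to the nearest coding TSS 19670 bp. By midpoint 518 peaks (39.2%) lay within 10 kb of a coding gene, where 15.1% of the eligible bases lay, and 102 (7.72%) lay over 100 kb away, where 48.4% of the bases lay. This corresponded to 2.61 peaks per Mb within 10 kb, 1.76 between 10 and 50 kb, 0.925 between 50 and 100 kb and 0.161 beyond 100 kb. Within 50 kb were 80.6% of the peaks and 38.9% of the bases. Over 20 chromosomes this share was 39.7 ± 8.85 percentage points higher than that of the bases (SD, n = 20), on 20 of 20 (exact sign-flip permutation test, adjusted p = 3.81e-06).

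**Figure D2:**
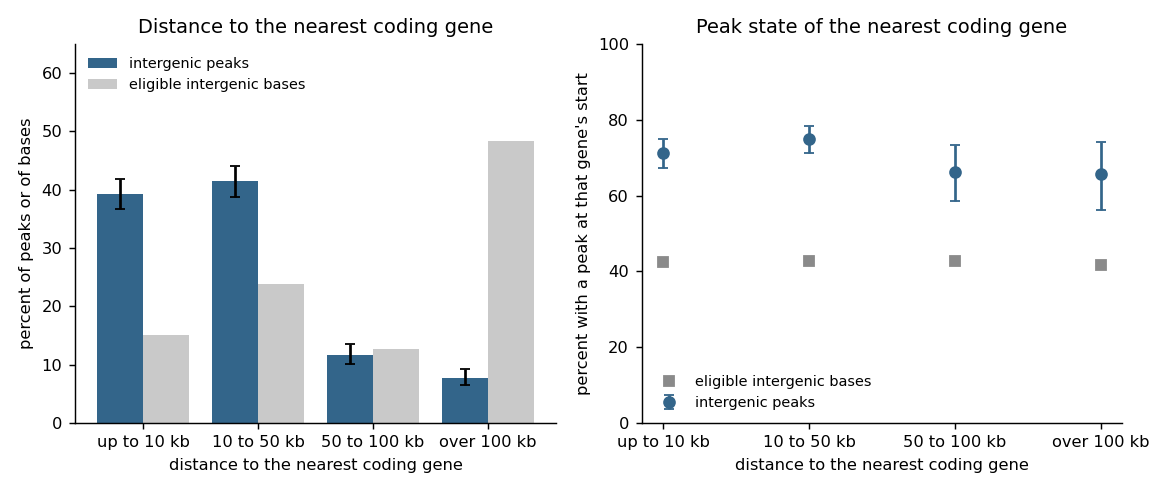
Left, percent of the 1321 intergenic peaks (blue bars, 95% Wilson intervals) and of eligible intergenic bases (grey bars) by distance of the midpoint or base from the nearest coding gene. Right, percent of those peaks (blue, 95% Wilson intervals) and bases (grey squares) whose nearest coding gene had a peak within 250 bp of a TSS: 65.7 to 75% of peaks and 41.7 to 42.7% of bases across the 4 distance classes.

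The coding gene nearest to an intergenic peak more often carried a peak at its own start than the gene nearest to an eligible base. For 948 of the 1321 (71.8%, interval 69.3 to 74.1%) it did, against 42.2% of the eligible bases and 50.2% of the 21755 coding genes. The difference from the bases was 28.7 ± 10.9 percentage points over 20 chromosomes (SD, n = 20), on 20 of 20 (exact sign-flip permutation test, adjusted p = 3.81e-06). The share changed little with distance, being 71.2% within 10 kb and 65.7% (interval 56.1 to 74.2%) beyond 100 kb, while that of the bases stayed between 41.7 and 42.7%. It was 68.0% for the 363 peaks with an island and 73.2% for those without. The 784 genes with a start peak that were nearest to an intergenic peak had a median start peak of 3604 bp, against 3258 bp over all 10925 coding genes with one.

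Both flanking coding genes were also examined where a peak lay between a pair of them (1291 peaks). Both had a start peak for 611 (47.3%, against 20.6% of the bases), 1 had it for 526 (40.7%, against 43.4%) and neither for 154 (11.9%, against 35.9%). Where only 1 flank had a start peak, it was the nearer gene for 315 of the 526 (59.9%, interval 55.6 to 64.0%) and the farther one for 211. The matching share of the eligible bases was not counted, so no preference can be read from this. Between the 5′ ends of both neighbours lay 432 peaks (33.5%, against 27.4% of the bases), between both 3′ ends 244 (18.9%, against 19.8%), and between genes on the same strand 615 (47.6%, against 52.8%).

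A preference for the 5′ side of the nearest gene was not detected when genes were taken by their bodies. On that side lay 733 peaks (55.5%, interval 52.8 to 58.1%) and 53.4% of the eligible bases, a mean difference of 1.65 ± 7.52 percentage points over 20 chromosomes, higher on 9 and lower on 11 (exact sign-flip permutation test, adjusted p = 0.340). When the nearest gene was taken by its TSS, 63.8% of the peaks and 58.9% of the eligible bases lay upstream. The mean difference over chromosomes was then 3.61 percentage points (same exact test, adjusted p = 0.0391). The answer therefore depended on how the nearest gene was defined. Peaks on the 5′ side had a median gap of 15685 bp and those on the 3′ side 11775 bp. Within 5 kb of a gene, 139 of 322 peaks (43.2%) lay on the 5′ side, where the distance limit to a TSS removes peaks. The 5′ share was 60.8% from 5 to 10 kb and 58.3% from 10 to 50 kb. From 50 to 100 kb it was 65.8% (98 of 149), and beyond 100 kb 52.9%. Of the eligible bases over 5 kb from a gene, 54.3% lay on the 5′ side.

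The farthest peak lay 1518669 bp on the 5′ side of Cntnap5a, a neural adhesion gene without a start peak, at chr1:114164556-114166087, and held 3 CpGs in 1532 bp. Next came peaks 1323953 bp beyond Sis, the intestinal sucrase-isomaltase gene, and 1127301 bp beyond Gata3, the luminal mammary transcription factor gene, whose own start peak was 15554 bp wide. Peaks 854551 bp from Dpp10 and 621434 bp from Dsel, which had a start peak of 1437 bp, completed the 5 farthest, and none of the 5 held an island. At the other end, a 1313-bp peak lay 21 bp beyond the 3′ end of Fzd7, a WNT receptor gene, and one of 1400 bp lay 138 bp beyond Fam120a, an RNA-binding protein gene. A peak 165 bp beyond the histone gene Hist1h2bh was 1253 bp wide. Of all intergenic peaks, 27 (2.04%) had a midpoint outside genes but reached into a coding gene.

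The closest intergenic peaks kept lay 1011 bp from a GENCODE start of Lama5, a laminin gene with a RefSeq start closer by (1996 bp wide, 1.85 CpGs per 100 bp), and 1021 bp from a start near Actg1, the cytoplasmic gamma actin gene (727 bp, 0.275 per 100 bp). The nearest intergenic peaks that the limit left out lay at 992 bp, with Top1 as nearest coding gene (1682 bp, 1.55 per 100 bp), and at 930 bp from Stard9 (518 bp, 0.579 per 100 bp).

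Most intergenic peaks had no other intergenic peak within 10000 bp. Another intergenic peak lay within 10000 bp of 192 of them (14.5%, interval 12.7 to 16.5%), which made 87 groups, of which 73 were pairs, 10 had 3 peaks and 4 had 4. For intronic peaks the share was 16.3%. A peak of any class lay within 10000 bp of 502 intergenic peaks (38.0%). That share was 44.4% for intronic peaks and 27.4% for peaks within 1000 bp of a TSS. For 909 intergenic peaks (68.8%) the nearest other peak was one within 1000 bp of a TSS. Such peaks made up 79.3% of all 13447 peaks, so no preference for them can be read from this. The 4 groups of 4 lay by Id3, an inhibitor of bHLH factors (chr4:136123527-136148908), Socs3, the inhibitor of cytokine signalling (chr11:117934429-117958947), Bahcc1 (chr11:120304616-120318026) and Pllp, the plasmolipin gene (chr8:94702521-94714582). They spanned 25382, 24519, 13411 and 12062 bp, and each held 1 or 2 peaks with an island. The widest of the groups of 3 spanned 19927 bp by the kinase gene Pim3 and held no island.

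Some genes were the nearest to several peaks. A total of 1107 coding genes (5.09%) were nearest to at least 1 intergenic peak, 159 of them to at least 2 and 35 to at least 3. Of the 35, 26 (74.3%) had a start peak, against 662 of the 948 genes (69.8%) that were nearest to 1 intergenic peak. The 6 genes nearest to 5 peaks each were 2410131K14Rik, Col1a1, Irf2bpl, Socs3, Gadd45g and Col1a2, all of which had a start peak.

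**Figure D3:**
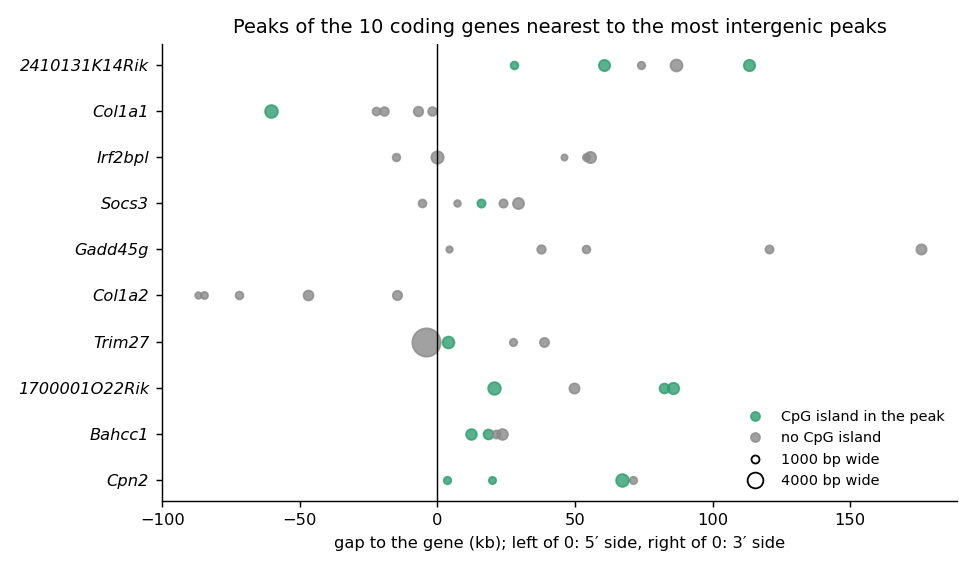
Intergenic peaks of the 10 coding genes that were nearest to the most of them, placed by the gap to the gene in kb (5′ side left of 0, 3′ side right of 0). Point size grows with peak width (8868 bp for the largest, by Trim27) and green marks peaks with a CpG island. The 5 peaks of Col1a1 and the 5 of Col1a2 all lie on the 5′ side, and those of Gadd45g, Bahcc1, Cpn2, 1700001O22Rik and 2410131K14Rik on the 3′ side.

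Both genes for the chains of type I collagen had their intergenic peaks on the 5′ side. All 5 peaks of Col1a1 lay at gaps of 2060, 7212, 19362, 22479 and 60457 bp, with widths from 1002 to 2873 bp. All 5 peaks of Col1a2, on another chromosome, lay at gaps of 14680 to 87049 bp, with widths from 449 to 1776 bp. Only the farthest peak of Col1a1 held an island, and the CpG densities of the other 9 ranged from 0.595 to 1.60 per 100 bp. Gadd45g, a growth arrest and stress gene, had its 5 peaks on the 3′ side, 4277 to 175863 bp away, and none held an island. Irf2bpl, with a start peak of 17298 bp, had 4 peaks on its 3′ side, 1 of which reached into the gene, and 1 on its 5′ side. Cpn2, the carboxypeptidase N subunit gene expressed in liver, was nearest to 4 peaks although it had no start peak, and 3 of them held an island.

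Wide peaks lay beside genes of different functions that had a start peak. A 6545-bp peak with 160 CpGs lay 1958 bp on the 5′ side of Pax2, a transcription factor gene of kidney and optic development, and a 5283-bp peak with 62 CpGs lay 5994 bp on the 5′ side of Timp2, an inhibitor of metalloproteinases. The peak near Gadd45b was 5122 bp wide and lay 3215 bp beyond it. That near Cd9, a tetraspanin gene, was 4823 bp wide, 33342 bp beyond the gene, and held 7 copies of the AP-1 letters, more than any other. Peaks near the formin gene Inf2 (4626 bp wide) and Tpt1 (4597 bp) lay 8196 and 7797 bp on the 5′ side.

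Wide peaks also lay beside coding genes that had no start peak. Of the 1321 intergenic peaks of any width, 373 (28.2%) had such a gene as their nearest. The widest were near Tex44 (5056 bp, 182 CpGs), Aqp2, the vasopressin-regulated water channel of the kidney (4375 bp, reaching into the gene), and Stac3, a gene of muscle excitation and contraction coupling (4358 bp). Others were near the olfactory receptor gene Olfr750 (4185 bp, 3 tRNA genes), Ifne, which encodes interferon epsilon (4027 bp, 75251 bp away), Wnt11 (3832 bp, 16990 bp away) and Gpr161, a receptor gene of the Hedgehog pathway (3426 bp, 12299 bp away). RefSeq starts lay within 1000 bp of the Ifne peak (of Gm34568), the Wnt11 peak (of Gm39054) and the Gpr161 peak (of Gpr161 and Tiprl). The Wnt11 peak also held 2 tRNA genes. The peaks beside genes without a start peak had a median width of 1065 bp and an island share of 31.1%, compared with 1069.5 bp and 26.1% for those beside genes with one.

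Short motif letters were counted on both strands in the central 500 bp of each peak, and in 2585697 tiles of 500 bp that covered the eligible bases. For peaks narrower than 500 bp this central window reached beyond the peak edges. The 13 motifs searched included those of AP-1 and the B box, and the letters of each of the others are given with its shares. Letters of different motifs were counted separately where they overlapped. A match describes letters and not a bound factor, and the GC content of peaks and tiles differed as given above.

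AP-1 letters were found in the central 500 bp of 328 of the 1321 intergenic peaks (24.8%, interval 22.6 to 27.2%), against 14.4% of the tiles, 30.0% of the intronic peaks and 10.0% of the peaks near a TSS. Per kb of peak they occurred 0.542 times, against 0.682 in intronic peaks and 0.319 in the eligible bases. The excess over the bases was 0.233 ± 0.115 per kb over 20 chromosomes (SD, n = 20), on 20 of 20 (exact sign-flip permutation test, adjusted p = 3.81e-06). The deficit against intronic peaks was smaller, with a mean difference of -0.129 ± 0.134 per kb, lower on 16 of 20 chromosomes (same exact test, adjusted p = 0.00127). Among intergenic peaks, AP-1 letters were in 18.7% of those with an island and 27.1% of those without. The 3 peaks with the most copies were those near Cd9 (7), Nanos3 (6 in 1216 bp) and Ppl, the periplakin gene (6 in 3240 bp).

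**Figure D4:**
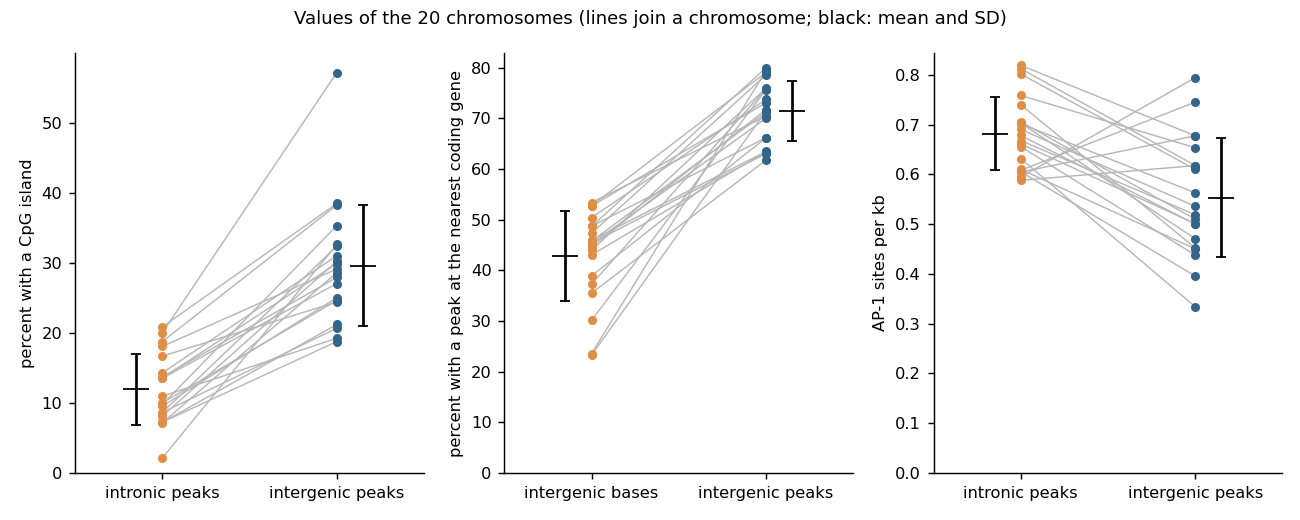
Values of each of the 20 chromosomes for intergenic peaks (blue) and their comparison (orange), joined by a line, with the mean and SD in black: percent of peaks with a CpG island, percent of peaks or bases whose nearest coding gene had a start peak, and AP-1 letters per kb of peak. The first and second measures are higher in intergenic peaks on 20 of 20 chromosomes, and the third is lower on 16.

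Of the 13 motifs, the one with the largest ratio to the tiles was that of SP and KLF factors. The letters of SP and KLF factors (GGGCGG) were in 27.1% of the intergenic peaks and 3.36% of the tiles, an 8.07-fold ratio. They were in 51.5% of the peaks with an island against 17.8% of those without. ETS letters (CCGGAAG) were in 6.81% of the peaks against 1.13% of the tiles. The core of the CTCF motif (AGGGGGC) was in 158 peaks, 3.71 times the share of the tiles. The E-box letters (CAGCTG), which hold no CpG, were in 31.3% of the peaks and 15.2% of the tiles, and were more frequent in peaks without an island (33.6%) than with one (25.1%). TEAD letters (GGAATG) were in 29.0% of the peaks and 25.6% of the tiles, and RUNX letters (TGTGGT) in 32.6% of the peaks and 30.2% of the tiles. NFI letters (TTGGCA) were in 29.3% of the peaks and 22.8% of the tiles. NF-Y letters (CCAAT) were in a smaller share of the peaks than of the tiles (43.4% against 60.8%), as were those of GATA factors (AGATAAG, 4.84% against 7.57%) and of CEBP factors (TTGCNNAA, 20.1% against 23.0%). The cyclic AMP response element, CRE (TGACGTCA), was in 6 peaks (0.454%, against 0.233% of the tiles), and the B box in 27 (2.04%, against 1.85%). No test was made of these shares beyond the AP-1 comparisons.

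**Figure D5:**
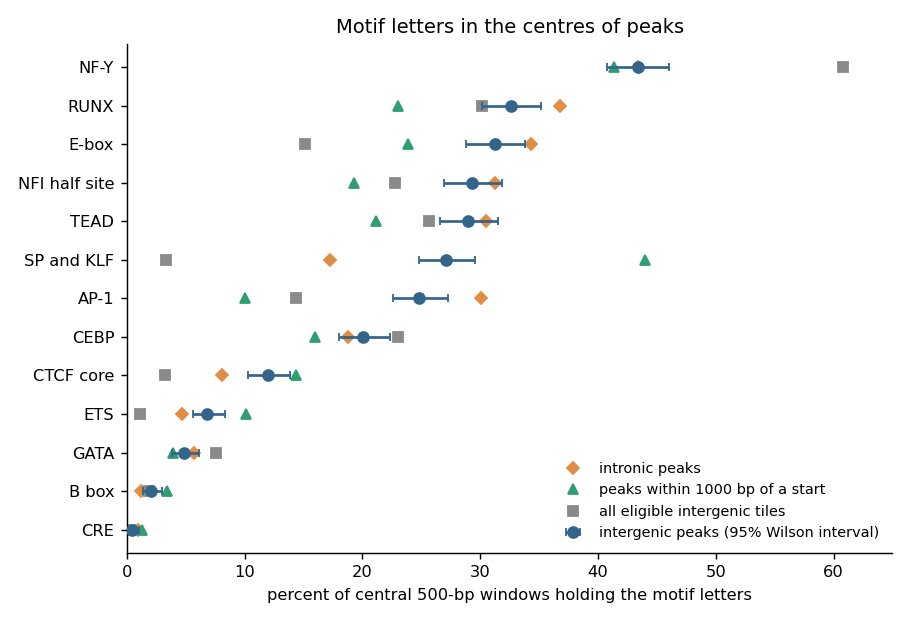
Percent of central 500-bp windows that hold the letters of each motif in intergenic peaks (blue, with 95% Wilson intervals), intronic peaks (orange), peaks within 1000 bp of a TSS (green) and eligible intergenic tiles (grey). SP and KLF letters are in 27.1% of intergenic peaks against 3.36% of tiles, AP-1 letters in 24.8% against 14.4%, and NF-Y letters in 43.4% against 60.8%.

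The functions of the nearest coding genes were followed with 20 gene lists, which together held 744 coding genes (3.42% of all) nearest to 6.11% of the eligible bases. For 177 intergenic peaks (13.4%) the nearest coding gene was in one of them. The lists were not tested, and their shares stand beside those of the bases.

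Genes of the extracellular matrix and its remodelling were nearest to 27 peaks (2.04%, against 0.466% of the bases), through 17 of the 69 genes. Of the 17, 14 had a start peak, as did 42 of all 69. After the collagen genes came Timp2 with 2 peaks (5283 and 899 bp) and Col5a1 with 2 (946 and 1452 bp). Genes of integrins, actin and focal adhesion were nearest to 20 peaks (1.51%, against 0.427%) through 14 of 87 genes. Among them Actb, the beta actin gene, had 2 peaks on its 5′ side (857 and 4057 bp wide), and Tln2 had 3 without a start peak by GENCODE vM21, although RefSeq placed starts of Tln2 within 1000 bp of 2 of the 3. Genes of epithelial junctions and keratins were nearest to 3 peaks (0.227%, against 0.0989%), 2 beside Krt8 and 1 beside Pkp1, the plakophilin gene, neither of which had a start peak, and only 8 of the 37 genes of that list had one.

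Other lists covered genes of growth control, signalling and bZIP transcription factors. The cell cycle and growth control list had 21 peaks (1.59%, against 0.295% of the bases) through 13 of 50 genes. Gadd45g had 5 of these peaks, and Trib1 and Pim3 had 3 each. All 13 genes had a start peak, as did 48 of the 50 on the list. The AP-1 and related bZIP factors had 15 (1.14%, against 0.212%), of which 4 lay beside Nfe2l3, without a start peak, 3 beside Fos at gaps of 8149 to 20072 bp, and 1 each beside Fosl1 (2152 bp away) and Fosb (9453 bp away). Growth factors and receptor kinases had 12 (0.908%, against 0.667%), with 3 beside Csf1, the macrophage growth factor gene, all on the 5′ side, and 2 beside Lif. The WNT pathway also had 12 (0.908%, against 0.337%), with 3 on the 5′ side of Wnt7b, which had no start peak, and 2 beside Fzd7.

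The remaining lists held genes of signalling feedback and of transcription factors. The ERK phosphatases and Sprouty genes had 8 peaks (0.606%, against 0.187%) through 6 of 20 genes, 3 of them beside Spred2, a 2833-bp one 6307 bp from Phlda1 and 1 beside Spry2. TGF-beta and BMP signalling had 11 (0.833%, against 0.460%), with 2 beside Ski, a repressor of SMAD signalling. The bHLH and EMT factors also had 11 (0.833%, against 0.457%), with 4 beside Id3, and 2 each beside Id2 and Tcf12. Forkhead factors had 8 (0.606%, against 0.312%), 3 of them beside Foxo1. KLF, SP and EGR factors (0.454%, against 0.299%), ETS factors (0.454%, against 0.154%) and nuclear receptors (0.454%, against 0.655%) had 6 each, including 2 beside Klf14, 2 beside Etv4 and 2 beside Rxra. SOX and T-box factors had 4 (0.303%, against 0.470%) and GATA factors with Trps1 had 3 (0.227%, against 0.239%). The Hippo pathway and TEAD factors also had 3 (0.227%, against 0.149%), beside Ankrd1, Tead1 and Ccn1, and AP-2 factors had 1 (0.0757%, against 0.0902%), beside Tfap2c. Neither a nuclear factor I gene (0.0392% of the bases) nor a RUNX or core-binding factor gene (0.0936%) was nearest to any intergenic peak.

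The chromosomes differed in how densely they carried intergenic peaks. Chromosome 11 had the most, 139, or 2.58 per Mb of eligible sequence, followed by chromosome 19 with 1.84 per Mb. Chromosome X had 14, or 0.128 per Mb, and the lowest autosome was chromosome 14 with 0.540. Of all peaks on a chromosome, the intergenic ones made up 3.97% on X and 13.4% on chromosome 15.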

How the data were processed

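Per the study's methods, the authors aligned reads to mm10, kept uniquely mapped reads, removed duplicates, called peaks per replicate against input, kept peaks found in all replicates and merged neighbours. Bowtie2, MACS2, SAMtools and the build mm10 are named, versions aside, in processing notes by the submitters. The deposited list gives chromosome, start and end in 3 columns, with no height or score, and starts were converted to 1-based positions. Because only uniquely mapped reads were kept, repeated sequence can lack peaks. Per-sample columns not used numbered 0.

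GENCODE vM21 gave genes and TSSs, and RefSeq on GRCm38.p6 gave sequence, tRNA genes, further starts and regulatory elements. Gaps run between edges, with the nearest gene taken by body. Exact shares over all eligible bases, those over 1000 bp from every TSS and in no gene body, served as comparison. Differences per chromosome were tested with a two-sided exact sign-flip permutation test over 20 chromosomes (1048576 sign patterns), adjusted by Benjamini-Hochberg over 8 tests at 0.05. Neighbouring peaks are not independent, hence the chromosome as unit. Intervals are 95% Wilson intervals and cover counting error only.

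Named in the text were the nearest coding genes of the 15 widest peaks, the 10 with most CpGs, the 5 farthest and 5 closest, the 10 genes and 5 groups with most peaks (gaps up to 10000 bp), the 10 widest beside genes without a start peak, up to 8 with most box pairs, the 3 with most AP-1 letters, up to 4 genes per list, and 2 peaks on each side of the limit. Peaks with most tRNA genes and those with RefSeq starts or elements were named after their values were seen. The peaks and lists were chosen with earlier results of these data known. Some of the genes and peaks named by this rule are given as counts or are not reported here. The computations were tested on simulated data and used Python 3.11.15 with pandas 2.3.3, numpy 2.4.6 and scipy 1.17.1, and figures matplotlib 3.10.9.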

Additional observations from a re-analysis of the deposited data

Results flagged for a closer look

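Outside the 20 chromosomes the list held 4 peaks, on 3 unplaced or unlocalized scaffolds, with widths from 1322 to 2626 bp. They entered no comparison, and whether they lie between genes was not examined.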

How the results depend on the processing

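No paired analysis was possible because a single consensus list stood for all replicates, which also meant that no replicate could be left out. The number of intergenic peaks ranged from 980 (TSS distance 5000 bp) to 1383 (coding and lncRNA starts only) and was 1160 with RefSeq starts added. The median distance to the nearest coding gene was 13654 bp, 19670 bp when measured to the TSS and 19221 bp with a TSS distance of 5000 bp. The 5′ share was 55.5%, 63.8% with the nearest gene taken by TSS, and 59.5% for peaks over 5000 bp from the gene. The matching shares of the eligible bases were 53.4%, 58.9% and 54.3%. The share within reach of another intergenic peak was 14.5% at 10000 bp, 9.77% at 5000 bp and 24.9% at 25000 bp. The island share was 27.5%, 6.96% under the stricter limits, and 46.1% when any 200-bp window that met the limits was enough, an alternative chosen after seeing the data. The median CpG density was 1.86, and 2 in the central 500 bp. The AP-1 share was 24.8%, 45.6% over the whole peak and 16.4% in the central 300 bp. Without peaks holding a tRNA gene or near a RefSeq start, an alternative chosen after seeing the data, the island share was 23.7% and the median CpG density 1.75. Of the 8 tests, 7 kept their direction and their side of the threshold under every alternative run (autosomes only, TSS distance 5000 bp, no base in a gene, and their own). The exception was the 5′ side, which passed with the nearest gene taken by TSS (3.61 percentage points, exact test, adjusted p = 0.0391) and had adjusted p from 0.148 to 0.904 under the others. The difference in width came nearest to the threshold at a TSS distance of 5000 bp (-73.0 bp, exact test, adjusted p = 0.0562). The causes of these shifts were not tested. With no heights in the list, weak peaks cannot be told from strong ones.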

Other observations

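RefSeq records experimentally studied regulatory elements in mouse, and 23 of the 1321 intergenic peaks (1.74%) overlapped one, as did 21 of 1328 intronic peaks (1.58%). Nearly all were annotated as enhancers. They included an 1822-bp peak 17557 bp from Fos, an 1186-bp peak 9453 bp from Fosb, an 895-bp peak 13967 bp from Btg2, an anti-proliferative gene, and a 1211-bp peak 20741 bp from Wee1, a kinase gene of mitotic entry, and all 4 genes had a start peak. Other peaks on such elements lay 6158 bp from Pax3 (1501 bp wide), 12136 bp from Ski (1681 bp) and, with 2 peaks on 1 element, 55606 and 53866 bp from Irf2bpl. A 675-bp peak overlapped an enhancer and a DNase I hypersensitive site 4317 bp from Nanog, a pluripotency factor gene without a start peak. No measurement of enhancer activity in C127 cells was used.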
